A study of Mus musculus with 16 samples.

Results

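The cecal epithelium of mice that carried only Bifidobacterium longum (Bl) was compared directly with that of mice that carried only Bacteroides thetaiotaomicron (Bt), on the Affymetrix Mouse 430 2.0 GeneChip. These were 4 of the 16 GeneChips of the series and 4 of the 8 of this type, chosen by their labels: Bl on GeneChips 9134 and 9135, and Bt on 9130 and 9443. The other 4 held Bt/Bl, mice given both species (9132 and 9133), and GF, germ-free mice (9128 and 9129). All were adult NMRI mice, male by the study's methods, raised germ-free on a polysaccharide-rich chow, and the colonized groups were studied 10 days after inoculation with B. longum, a strain from an infant, with B. thetaiotaomicron (spelled "thetatiotaomicron" in the labels), a strain from a human adult, or with both. Epithelium was cut from frozen ceca by laser capture, RNA of 4 mice was pooled for each state, and the duplicate GeneChips were 2 amplifications of that 1 pool. The spread between duplicates was therefore technical, and every test below compared 1 pool with another, not mouse with mouse (n = 2 GeneChips a state). In such bulk samples fewer cells of a type and less RNA per cell cannot be told apart. This comparison does not use GF as its baseline, and GF and Bt/Bl entered only to estimate the common spread and to show where their signals lay.

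B. thetaiotaomicron is a gram-negative anaerobe that degrades plant and host glycans, and B. longum is a gram-positive saccharolytic anaerobe that is abundant in infants. The cecal epithelium meets such residents with secreted proteins: C-type lectins of the Reg3 family, which bind bacterial cell walls and are induced through Toll-like receptors and STAT3, the ribonuclease angiogenin 4 of Paneth and goblet cells, and the mucin and accessory proteins of goblet cells. Absorptive cells also answer microbial products with changes in lipid, sugar and amino acid handling.

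The table held linear MAS5 signals of 45101 probe sets. A probe set was tested where both Bl or both Bt GeneChips exceeded the median of all values, 583.1, and lower signals were raised to that floor before log2. This left 21210 probe sets and 11654 genes, each represented by its brightest probe set. The median signal of a GeneChip was 759 and 604.2 in Bl, against 580.6 and 653.8 in Bt, so GeneChip 9134 was the brightest of all 8, the others lying between 474.9 and 653.8. The duplicates differed by a median of 0.52 (log2) in Bl and 0.42 in Bt, compared with 0.28 in Bt/Bl and 0.32 in GF. Across the probe sets tested, Pearson's r between duplicates was 0.893 in Bl and 0.922 in Bt. Between a Bl and a Bt GeneChip it ran from 0.858 to 0.922. The closest such pair was thus more alike than the Bl duplicates. The 3′ to 5′ ratio of the Gapdh control, a measure of RNA quality after amplification, was 10.4 and 17.6 in Bl, against 11.8 and 8.93 in Bt. That of the actin control ordered the GeneChips differently, with 28.4 and 21.4 in Bl, against 23.2 and 36.3 in Bt. Defining markers of the epithelium were bright in both states: keratin 8 (Krt8) averaged 611051 in Bl and 477310 in Bt, and the adhesion molecule Epcam 24779 in Bl and 17602 in Bt. The GF pool stood apart from the 3 colonized pools in Eif2s3y, a Y-linked gene (71.3 and 614.4, against 3201 to 5657), in Xist, which silences the second X chromosome of females (17157 and 22762, against 3753 to 11176), and in Fabp6, the bile acid-binding protein of the ileum (68029 and 95108, against 1179 to 1798), while between Bl and Bt the log2 fold changes of Eif2s3y and Fabp6 were -0.24 and 0.02 (unadjusted p of 0.54 and 0.95 from limma). The Eif2s3y and Xist signals of GF go against the stated sex. Xist was also above the floor on every GeneChip of the colonized pools, and the sex of their mice was not tested. Between Bl and Bt its log2 fold change was -0.30 (SE 0.27), with both Bl GeneChips below both Bt GeneChips. With the GF GeneChips left out of the fit, 1 probe set was called higher in Bl and 7 lower. These counts equal those with GF, but the sets differed: 7 of the 8 probe sets called with GF were still called. Ang4, Reg3b, Reg3g, Vnn1 and Ccl6 were called in both fits.

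Few genes were called between the 2 mono-associated states, and those that were encode secreted or cell-surface proteins. With limma and Benjamini-Hochberg adjustment over all 21210 probe sets, 8 probe sets differed at an adjusted p below 0.05 (0.0377%), of which 1 was higher in Bl (0.00471%) and 7 were lower (0.033%). Counted by gene, this was 5 of 11654 genes (0.0429%): angiogenin 4 (Ang4) was higher in Bl (0.00858%), and Reg3b, Reg3g, vanin 1 (Vnn1) and the chemokine Ccl6 were lower (0.0343%). The remaining call was a probe set to which the annotation used here gives no gene. It had 2468 and 1750 in Bl against 13884 and 9303 in Bt, a log2 fold change of -2.45 (SE 0.29, adjusted p = 0.0150). By a wider criterion, in which the near end of limma's 90% interval had to lie beyond 2-fold and the mean signals more than 10 apart, 20 probe sets were higher in Bl (0.0943%) and 32 were lower (0.151%), or 52 in all (0.245%). By gene it was 9 higher (0.0772%) and 23 lower (0.197%), 32 in all (0.275%). An unadjusted p below 0.05 was reached by 14.9% of probe sets and 13.5% of genes. Both Bl signals lay above both Bt signals in 21.7% of probe sets and below both in 19.6%, and among genes these shares were 19.4% and 20%. With 2 GeneChips against 2, an exact permutation test of a single gene cannot go below p = 0.33, so non-overlap is given only as a description. The median log2 fold change of all genes was -0.02. With each GeneChip scaled to a common median, 10 probe sets were past the bound in the higher direction and 32 in the lower. With 1 GeneChip left out in turn, its state kept a lone GeneChip that adds nothing to the estimate of spread. Only fold changes are therefore given here for these 8 fits. Leaving out a Bt/Bl or GF GeneChip cannot change them, so the ranges come from the fits without a Bl or Bt GeneChip. The log2 fold change ran from -6.66 to -6.28 for Reg3b, from -4.83 to -4.05 for Reg3g and from 2.72 to 2.97 for Ang4. That of Vnn1 ran from -2.47 to -1.90, and that of Ccl6 from -2.82 to -2.70.

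**Figure D1:**
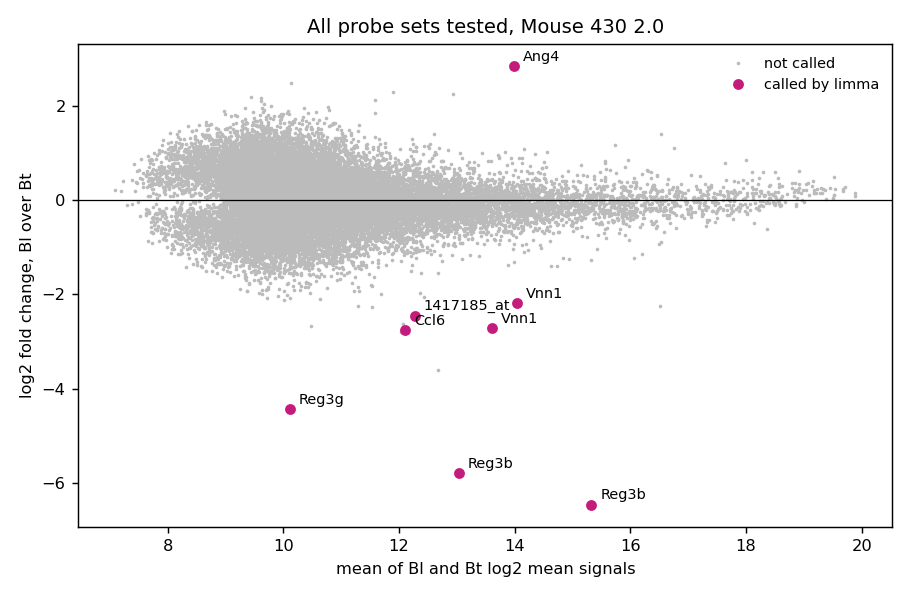
Log2 fold change of Bl over Bt (vertical axis) against the mean of the Bl and Bt log2 mean signals (horizontal axis) for the 21210 probe sets tested on the Mouse 430 2.0, with each called probe set labelled by its gene, or by its ID where it has none. Of the 8 called, only that of Ang4 lies above 0, and both Reg3b probe sets lie lowest at -6.47 and -5.80.

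The lectins Reg3b and Reg3g had by far the lowest signals in Bl relative to Bt. Reg3b, a secreted C-type lectin that acts on bacteria at the mucosal surface, had 3803 and 4930 in Bl, against 405724 and 362467 in Bt. Its log2 fold change was -6.47 (SE 0.21, adjusted p = 1.41e-07), that is 88.6-fold lower in Bl. A second probe set of the gene had mean signals of 1118 in Bl and 62612 in Bt, a log2 fold change of -5.80 (SE 0.24, adjusted p = 8.41e-07). The other pools lay between these extremes, nearer Bt on the log2 scale: Bt/Bl gave 252956 and 263622 and GF 136536 and 151076, so that Bl was below every other pool, including the germ-free one. Reg3g, a peptidoglycan-binding lectin that kills gram-positive bacteria, had 152.3 and 33.6 in Bl, both under the floor, and 16629 and 9676 in Bt. With Bl held at the floor it was at least 21.8-fold lower in Bl (log2 fold change -4.44, SE 0.35, adjusted p = 4.83e-04). Its order over the states was that of Reg3b, with 7321 and 7842 in Bt/Bl and 2437 and 2154 in GF.

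The other tested members of the Reg family differed far less than Reg3b and Reg3g. Reg3b, Reg3d, Reg3a, Reg2, Reg1 and Reg3g are neighbours in this order among the protein-coding genes of mouse chromosome 6 (GRCm38.p6), while Reg4 lies on chromosome 3. Of the 7 members on the GeneChip 5 were tested, 2 were called lower in Bl (against 0.0343% of all genes) and none was called higher (against 0.00858%). Both Bl GeneChips lay below both Bt GeneChips for 3 of the 5 (60%, against 20% of all genes) and above for none (0%, against 19.4%). Reg4, a lectin of enteroendocrine and goblet cells, had 12211 and 13027 in Bl, against 13108 and 15104 in Bt (log2 fold change -0.16, unadjusted p = 0.46 from limma). Its signals too were lower in Bl without overlap. Reg1 and Reg2, whose products are best known from the exocrine pancreas, had log2 fold changes of 0.22 (SE 0.37) and 0.28 (SE 0.74), and their Bl and Bt GeneChips overlapped. Reg3a and Reg3d did not pass the filter.

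The promoters of Reg3b and Reg3g are shown because both genes were lower in Bl, and that of Ang4 because it was the one gene called higher. Each window holds 250 bases before and 50 after the start in the RefSeq annotation of GRCm38.p6, 300 in all, and each is written along its gene's strand. Capitals mark matches to TTCNNNGAA, the palindromic core that STAT factors bind (it reads the same on both strands), which is found in 8.3% of 32851 such windows.
Reg3b, chr6:78370635-78370934, plus strand: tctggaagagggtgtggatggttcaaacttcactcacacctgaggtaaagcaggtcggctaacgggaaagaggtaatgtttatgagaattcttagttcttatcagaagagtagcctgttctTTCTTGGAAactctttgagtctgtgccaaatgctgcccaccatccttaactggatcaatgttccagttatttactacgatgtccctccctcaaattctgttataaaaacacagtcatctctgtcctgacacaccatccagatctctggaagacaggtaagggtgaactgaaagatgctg
Reg3g, chr6:78468825-78469124, minus strand: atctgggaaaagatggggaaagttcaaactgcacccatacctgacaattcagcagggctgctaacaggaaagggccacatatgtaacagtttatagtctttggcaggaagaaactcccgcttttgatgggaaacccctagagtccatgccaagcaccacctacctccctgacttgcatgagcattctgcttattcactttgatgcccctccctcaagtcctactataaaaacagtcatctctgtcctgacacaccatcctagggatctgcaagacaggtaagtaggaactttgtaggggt
Ang4, chr14:51773541-51773840, minus strand: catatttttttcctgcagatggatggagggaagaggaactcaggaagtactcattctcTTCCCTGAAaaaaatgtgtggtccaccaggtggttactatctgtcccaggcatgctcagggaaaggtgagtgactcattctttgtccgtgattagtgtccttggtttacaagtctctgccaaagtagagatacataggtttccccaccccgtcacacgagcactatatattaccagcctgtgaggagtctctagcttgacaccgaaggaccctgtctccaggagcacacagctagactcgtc
Reg3b had 1 match, TTCTTGGAA, starting 129 bases before the start, Ang4 had 1, TTCCCTGAA, starting 192 bases before it, and Reg3g had none. The Reg3 windows shared a run of 29 bases, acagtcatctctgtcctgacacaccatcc, at the same distance from the start in each, while the longest run that Reg3b shared with Ang4 was 8 bases. A match only describes letters, and Reg3b and Ang4, which differed in opposite directions, each held one.

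**Figure D2:**
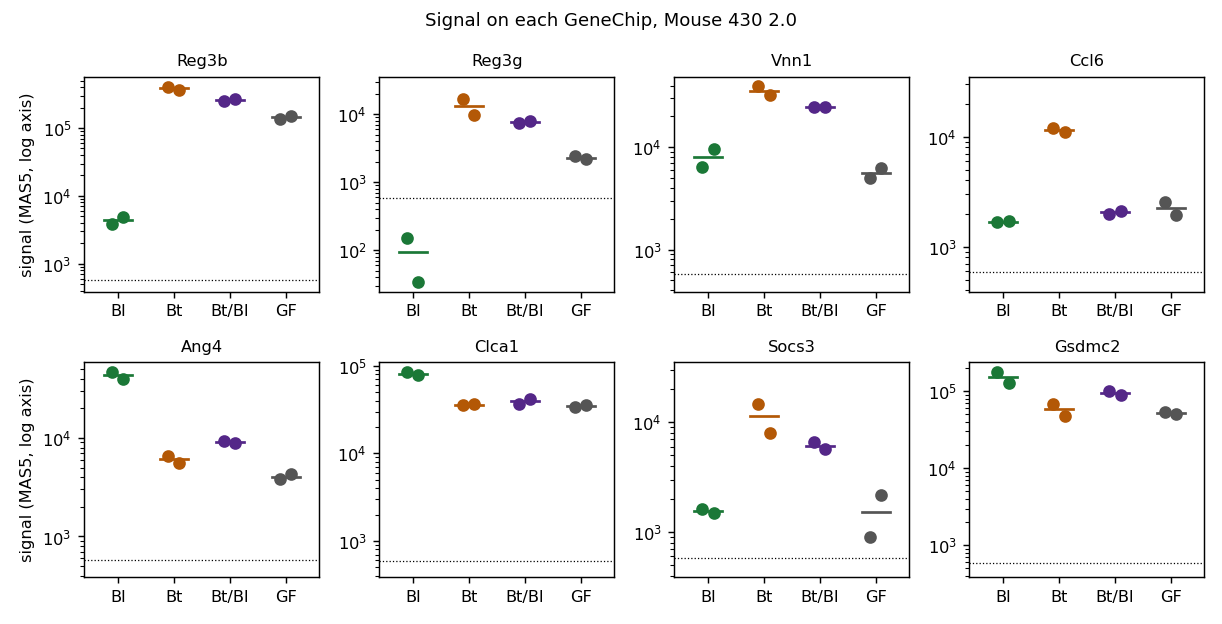
Signal on each GeneChip (MAS5, log axis) for 8 genes in Bl, Bt, Bt/Bl and GF; points are the 2 GeneChips of a state, bars their mean, and the dotted line the floor of 583.1. Reg3b and Reg3g are lowest in Bl and highest in Bt, Ang4, Clca1 and Gsdmc2 are highest in Bl, and Vnn1, Ccl6 and Socs3 are highest in Bt.

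Ang4, a ribonuclease of the granules of Paneth and goblet cells that is active against gram-positive bacteria, was the one gene called higher in Bl. It had 46895 and 40107 in Bl, against 6570 and 5535 in Bt, and gave 9287 and 8912 in Bt/Bl and 3818 and 4280 in GF. Both Bl GeneChips thus exceeded all 6 others. The log2 fold change was 2.85 (SE 0.23, adjusted p = 4.83e-04), or 7.19-fold. A second probe set averaged 16697 in Bl and 3692 in Bt, with a log2 fold change of 2.24 (SE 0.36, adjusted p = 0.127). The suffix of the brighter probe set, _x_at, marks probes that can match related transcripts. The probe set of the related ribonuclease Ang has the same suffix, so it too can match related transcripts. It had far dimmer signals, 1546 and 2349 in Bl and 1179 and 1053 in Bt (log2 fold change 0.77, SE 0.53). Of 16 tested genes of secreted goblet and Paneth cell defence proteins, Ang4 was the only one called, and the median log2 fold change was 0.22. Both Bl GeneChips lay above both Bt GeneChips for 7 of them (43.8%, against 19.4% of all genes) and below for 3 (18.8%, against 20%). The lowest member was Lyz1, a lysozyme, with 8081 and 5773 in Bl against 21606 and 11157 in Bt. Its log2 fold change was -1.18 (SE 0.32, adjusted p = 0.174). Its 2 other probe sets gave -1.34 (SE 0.30) and, with both Bt signals under the floor, 0.58 (SE 0.28).

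Goblet cell genes lay in both directions. Clca1, a secreted metalloprotease of the mucus layer, had 85225 and 78138 in Bl, against 36004 and 36349 in Bt, and 33547 to 41467 in the remaining pools. Its log2 fold change of 1.17 (SE 0.19) did not pass (adjusted p = 0.127), and a second probe set, with 1 Bt signal under the floor, gave 2.29 (SE 0.65, adjusted p = 0.181). Muc2, the gel-forming mucin, lay the other way, with 59458 and 37734 in Bl against 89920 and 81136 in Bt (log2 fold change -0.85, SE 0.23, adjusted p = 0.18). Atoh1, the transcription factor that commits cells to the secretory lineage, had 1351 and 1175 in Bl and 2365 and 3269 in Bt (-1.14, SE 0.48). Other members chosen after their values were seen were Agr2, a disulfide isomerase needed for mucin folding, at 14846 and 16774 in Bl against 33896 and 30010 in Bt (log2 fold change -1.02, SE 0.20, adjusted p = 0.164), and Spdef, a transcription factor of goblet cell maturation, at 311.6 and 205.1 in Bl against 792.7 and 1796 in Bt. Other goblet products had smaller fold changes than Clca1 and Muc2: Tff3, a trefoil peptide, averaged 179374 in Bl and 186076 in Bt, the lectin Zg16 784186 and 722671, and Fcgbp, a mucus protein, 33781 and 27037, the last without overlap of its GeneChips. Over the 23 tested genes of goblet cell differentiation 1 was called higher, none lower, and the median log2 fold change was 0.04. Both Bl GeneChips lay above both Bt GeneChips for 4 of them (17.4%, against 19.4% of all genes) and below for 8 (34.8%, against 20%). Among 5 tested mucins none was called. The membrane mucin Muc3 had 177958 and 180500 in Bl and 133043 and 119262 in Bt (log2 fold change 0.51, SE 0.20, adjusted p = 0.283), Muc20 had 2030 and 1236 in Bl against 546.4 and 238.4 in Bt (1.44, SE 0.33), and the 4 GeneChips of Muc4 overlapped (0.29, SE 0.37).

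**Figure D3:**
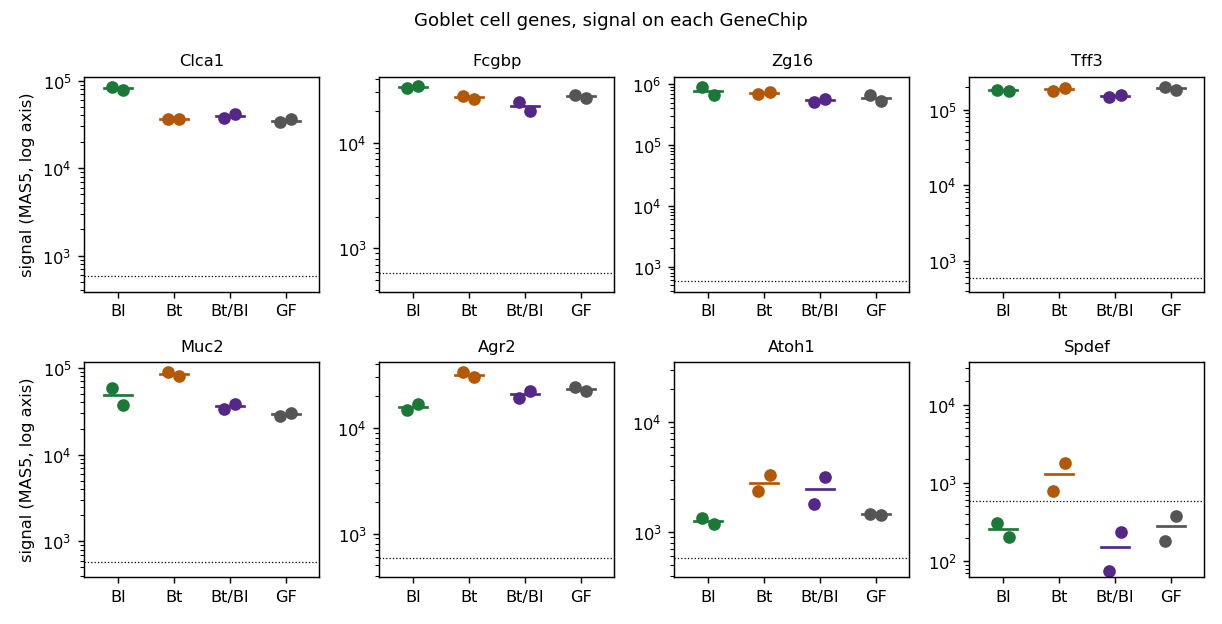
Signal on each GeneChip (MAS5, log axis) of 8 goblet cell genes in Bl, Bt, Bt/Bl and GF; points are GeneChips, bars the mean of 2, and the dotted line the floor of 583.1. Clca1 is higher in Bl, Muc2, Agr2, Atoh1 and Spdef are lower in Bl than in Bt, and Fcgbp, Zg16 and Tff3 lie close together, with the adjusted p of each of the 8 above 0.05.

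Vnn1 was lower in Bl, and it was the only one called of the 15 of 25 genes of its list that were lower in Bl without overlap. Vnn1, a pantetheinase of the cell surface and a target of the nuclear receptor PPARα, had 6428 and 9519 in Bl, against 39171 and 32339 in Bt. The log2 fold change was -2.19 (SE 0.25, adjusted p = 0.0104), and a second probe set gave -2.71 (SE 0.27, adjusted p = 0.0036). Bt/Bl was close to Bt with 24436 and 24425, and GF was close to Bl with 5024 and 6236. Of 25 tested PPAR targets and enzymes of fatty acid oxidation Vnn1 alone was called. Both Bl GeneChips lay below both Bt GeneChips for 15 of the 25 (60%, against 20% of all genes) and above for 1 (4%, against 19.4%), and 7 had an unadjusted p below 0.05 in the lower direction and none in the higher. The list had a median of -0.50 on the log2 scale, against -0.02 for all genes.

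Among these enzymes the differences were modest. Cpt1a, the carnitine transferase that admits long-chain fatty acids to the mitochondrion, had 5731 and 2659 in Bl, against 9286 and 8107 in Bt (log2 fold change -1.15, SE 0.36, adjusted p = 0.196). Acot1, a cytosolic acyl-CoA thioesterase, had 905.6 and 1001 in Bl and 1723 and 2672 in Bt (-1.17, SE 0.52). The peroxisomal thiolase Acaa1b, among the brightest of the list, had 270804 and 271379 in Bl, against 392354 and 437043 in Bt (-0.61, SE 0.21, adjusted p = 0.225), and its mitochondrial counterpart Acaa2 43427 and 34730 in Bl against 68630 and 52165 in Bt (-0.62, SE 0.22). Cpt1a, Acaa1b and Acaa2 were picked from the list after their values were seen. Angptl4, a secreted inhibitor of lipoprotein lipase and a PPAR target, was unsteady, with 2350 and 587.3 in Bl and 2565 and 2980 in Bt (-1.23, SE 0.79). The one member with both Bl GeneChips above was Fabp2, the intestinal fatty acid-binding protein, with means of 893414 in Bl and 632240 in Bt. Ppara itself averaged 971.6 in Bl and 1898 in Bt, and Pparg 6556 and 7687, with unadjusted p of 0.18 and 0.35 from limma. Fabp1, the liver-type binding protein, was dim in both states (1149 and 406.2 in Bl, 1135 and 934.3 in Bt) on its brightest probe set (-0.33, SE 0.39), while a second had 384.7 and 979.4 in Bl and 1714 and 3781 in Bt (-1.75, SE 0.49, adjusted p = 0.181). The 32 tested genes of oxidative phosphorylation and the citric acid cycle, in the same mitochondria, had a median log2 fold change of 0.01. Of these, 2 members were apart in each direction (6.25%, against 19.4% higher and 20% lower among all genes).

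**Figure D4:**
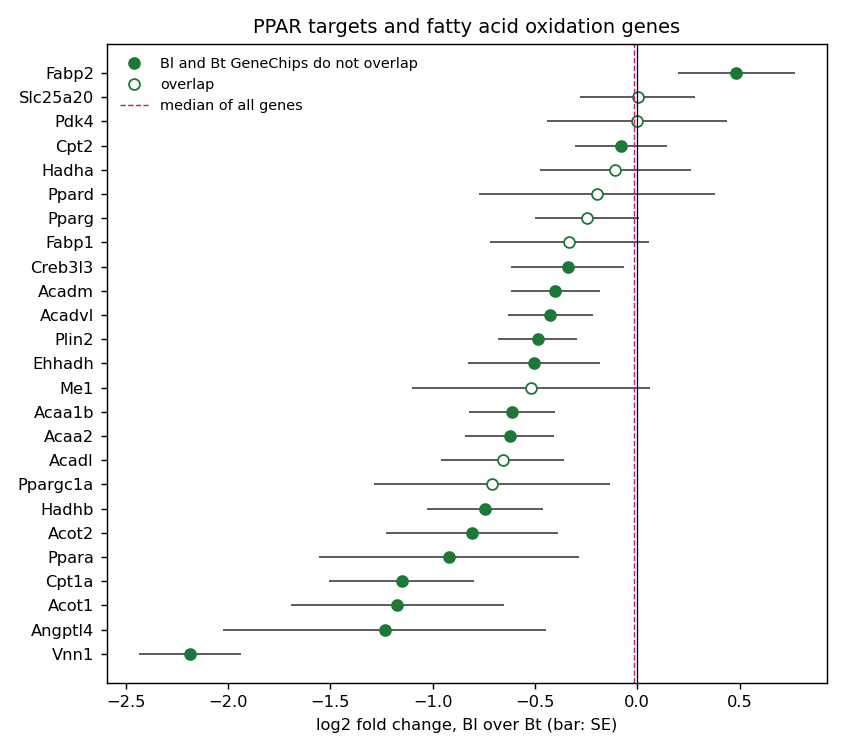
Log2 fold change of Bl over Bt with its SE for the 25 tested PPAR targets and fatty acid oxidation genes; filled points are genes whose Bl and Bt GeneChips do not overlap, and the dashed line is the median of all genes, -0.02. Most points lie left of that line, Vnn1 is farthest left at -2.19, and Fabp2 is the one filled point on the right.

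Ccl6, a CC chemokine that attracts myeloid cells, had 1664 and 1702 in Bl, against 11919 and 10959 in Bt. Bt/Bl (1967 and 2127) and GF (2534 and 1955) lay nearer Bl, and both Bt GeneChips were above the 6 others. The log2 fold change was -2.76 (SE 0.34, adjusted p = 0.0150), and a second, dimmer probe set gave -1.15 (SE 0.64). It was the one call among 17 tested chemokines and cytokines. Both Bl GeneChips lay below both Bt GeneChips for 8 of them (47.1%, against 20% of all genes) and above for 4 (23.5%, against 19.4%). Cxcl14, a chemokine of barrier epithelia, had 458.1 and 409.5 in Bl, both under the floor, and 1114 and 1769 in Bt (at least 2.41-fold lower, adjusted p = 0.164). Tnfsf10, a death ligand, had 231.7 and 218.3 in Bl and 1358 and 1483 in Bt (at least 2.43-fold lower, adjusted p = 0.215).

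Socs3, the inhibitor that cytokine receptors induce through STAT3, was not called. It had 1628 and 1476 in Bl, against 14698 and 7905 in Bt, with 6534 and 5709 in Bt/Bl and 899.6 and 2151 in GF (log2 fold change -2.80, SE 0.45, adjusted p = 0.137). A second probe set gave -1.91 (SE 0.56, adjusted p = 0.184). Its order over the colonized states, lowest in Bl and highest in Bt, was that of Reg3b and Reg3g. Stat3 itself averaged 2350 in Bl and 1559 in Bt and its GeneChips overlapped, and Jak2, a kinase of the same receptors, 12853 and 12654. Il6ra, the interleukin-6 receptor, had 1660 and 1126 in Bl against 604.6 and 277.2 in Bt (1.20, SE 0.40, adjusted p = 0.214). Of the 15 tested Socs, Stat and receptor genes none was called, and their median was -0.06.

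Markers of fibroblasts, smooth muscle and macrophages had lower summed signals in Bl, those of endothelium and of T and NK cells did not or overlapped, and none of these markers was called. The 13 tested markers of fibroblasts and stroma had summed signals of 48353 and 38575 in Bl, against 84333 and 77465 in Bt, with 4 members lower (30.8%, against 20% of all genes) and none higher without overlap. Adamdec1, a metalloprotease of intestinal macrophages and stroma, made up much of these sums. It had 13749 and 17394 in Bl, against 44297 and 37624 in Bt (log2 fold change -1.40, SE 0.21, adjusted p = 0.0762). The collagen gene Col3a1 had 5492 and 5005 in Bl against 9046 and 11489 in Bt (-0.96, SE 0.26). Dcn, another fibroblast marker, lay in the opposite direction, with a log2 fold change of 0.55. The 11 tested markers of macrophages and dendritic cells had summed signals of 23779 and 19427 in Bl, against 35305 and 30288 in Bt. Of these, 7 were lower without overlap (63.6%, against 20% of all genes) and 1 was higher (9.09%, against 19.4%), with a median of -0.47. Csf1r, the macrophage growth factor receptor, had 9192 and 4015 in Bl and 12781 and 10267 in Bt, whereas Adgre1 and C1qa, which also define macrophages, differed little (-0.02 and 0.17), and Cd68 did not pass the filter. The 6 tested smooth muscle markers had summed signals of 16388 and 13276 in Bl, against 27306 and 19003 in Bt. The 7 tested endothelial markers summed to 10424 and 6937 in Bl, against 6314 and 6789 in Bt (median 0.47). Of these, 2 were higher (28.6%, against 19.4% of all genes) and 1 was lower (14.3%, against 20%) without overlap. The 7 tested T and NK cell markers summed to 8191 and 7369 in Bl, against 7676 and 11347 in Bt. Neutrophil and mast cell markers were near the floor, with 2 of 15 tested. The part of these cells in the values of Ccl6, Lgals1, Gja1 and the other lower genes was not tested.

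Among genes of innate defence other than the Reg lectins and Ang4, none of those described here was called. The serum amyloid Saa1, an acute-phase protein of the gut epithelium, had 592231 and 656287 in Bl and 559833 and 567469 in Bt (log2 fold change 0.15, SE 0.24), while GF had 288216 and 296403. Retnlb, a goblet cell protein with activity against gram-negative bacteria, averaged 88204 in Bl and 85023 in Bt (0.04, SE 0.21), and 31409 and 34153 were its signals in GF. These genes were chosen after their values were seen, as secreted defence genes that were bright in both colonized states. Of the 11 tested inflammatory defence and acute-phase genes none was called (median 0.15). Slpi, an inhibitor of neutrophil proteases, had 1728 and 799.6 in Bl, against 141.9 and 521 in Bt, both under the floor (at least 2.02-fold higher, adjusted p = 0.21). The peptidoglycan receptor Pglyrp1 (2908 and 588.4 in Bl, 2507 and 1738 in Bt) and the tryptophan-degrading enzyme Ido1 (2381 and 3425 in Bl, 670.1 and 3293 in Bt) overlapped between the states. Of 20 tested NF-κB subunits and targets none was called, and their median was 0.07. Nfkb2 had 14483 and 16863 in Bl and 24179 and 71126 in Bt (-1.41, SE 0.39, adjusted p = 0.179), a mean set by GeneChip 9443. Zc3h12a, a ribonuclease that degrades cytokine transcripts, averaged 2646 in Bl and 907.2 in Bt (1.52, SE 0.57), and Relb, a subunit, 1083 and 289.7.

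Interferon-responsive genes also gave no call. Of the 23 tested type I interferon-stimulated genes 5 were higher in Bl without overlap (21.7%, against 19.4% of all genes). In the lower direction there were 7 (30.4%, against 20%), and the median log2 fold change was -0.14. Ifit1, an RNA-binding antiviral protein, had 6239 and 6728 in Bl, against 9757 and 8443 in Bt (-0.49, SE 0.24, adjusted p = 0.375), while Bt/Bl had 43357 and 44125. Similarly Rsad2, the antiviral enzyme viperin, had 2257 and 3446 in Bl, 3378 and 4193 in Bt, and 12983 and 10428 in Bt/Bl. For these 2 genes the mono-associated states were thus closer to each other than either was to Bt/Bl. Ifit3 and Oasl2 had at least 1 Bl signal under the floor, with log2 fold changes of -0.99 (SE 0.50) and -0.93 (SE 0.53), and Zbp1, a nucleic acid sensor, -0.85 (SE 0.52). Oasl1 and Xaf1 pointed the other way, with 7638 and 2942 in Bl against 2286 and 1608 in Bt for Oasl1 (1.31, SE 0.47), and 1420 and 1218 against 294.8 and 595.6 for Xaf1 (1.16, SE 0.38). Among 6 tested interferon-inducible GTPases, which act on intracellular microbes, Igtp had 1296 and 1439 in Bl and 2929 and 2857 in Bt (-1.08, SE 0.42, adjusted p = 0.276), and Ifi47 had -0.46 (SE 0.30). Irgm1 and Irgm2 overlapped (0.64 and 0.25).

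Transport and lipid genes held a few large values that did not pass the adjustment. Slc5a9, a sodium-coupled mannose and glucose transporter, had 2447 and 1313 in Bl, against 15653 and 30264 in Bt, a log2 fold change of -3.60 (SE 0.72, adjusted p = 0.164). Its GF duplicates were 2231 and 15804, the 2 other probe sets of the gene gave -1.21 and -0.16, and the level of the gene was therefore poorly fixed. Apoa4, an apolipoprotein of absorptive cells, had 3566 and 508.9 in Bl and 10119 and 7832 in Bt (-2.63, SE 0.68, adjusted p = 0.168), and Apoa1 1478 and 2047 in Bl and 3501 and 3162 in Bt (-0.94, SE 0.30), with Apoa1 at 33239 and 31104 in GF. Pnliprp2, a galactolipase, had 2192 and 2178 in Bl against 509.9 and 87.9 in Bt, both under the floor, and was at least 3.75-fold higher (adjusted p = 0.181), with a second probe set at 1.58 (SE 0.37). Slc2a5, the fructose transporter, had 2314 and 1154 in Bl and 1149 and 511 in Bt (0.997, SE 0.58). The transporters of short-chain fatty acids, the main fermentation products of these bacteria, were not separated: Slc16a1 averaged 7444 in Bl and 4539 in Bt, and Slc5a8 4201 and 3164, with unadjusted p of 0.28 and 0.59 from limma. Over the 18 lipid export genes and the 11 genes of short-chain fatty acid and sugar transport none was called, with medians of -0.10 and 0.22.

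Of 14 tested amino acid and peptide transporters none was called, and the median log2 fold change was -0.49. Without overlap, 5 were lower in Bl (35.7%, against 20% of all genes) and 2 were higher (14.3%, against 19.4%). Slc7a9, the light chain of the cystine transporter, had 1351 and 1521 in Bl, against 3326 and 3532 in Bt (-1.26, SE 0.41, adjusted p = 0.213). Its heavy chain Slc3a1, named after its values were seen, had 17636 and 21010 in Bl, against 26054 and 33495 in Bt (-0.62, SE 0.21), so both subunits were lower without overlap. Slc3a2, the heavy chain of other amino acid exchangers, had 928 and 1801 in Bl and 2079 and 3931 in Bt (-1.15, SE 0.53), whereas Slc7a8, one of its light chains, was higher with 1370 and 1610 in Bl against 611.4 and 301.6 in Bt (1.31, SE 0.41). The brush border peptidases were mixed too. Dpp4 had 202.6 and 981.2 in Bl and 2369 and 2801 in Bt (-1.77, SE 0.55, adjusted p = 0.196), with -0.33 and -0.19 on other probe sets, and the meprin subunit Mep1b 99252 and 99207 in Bl against 74820 and 54555 in Bt (0.64, SE 0.21, adjusted p = 0.213). The zinc-binding metallothioneins Mt1 and Mt2 were both lower in Bl without overlap. Mt1 had 82218 and 51466 in Bl and 147302 and 105815 in Bt (-0.94, SE 0.28), and Mt2 14431 and 17314 in Bl against 34725 and 26893 in Bt (-0.95, SE 0.22), with adjusted p of 0.184 and 0.164.

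Gsdmc2, a gasdermin of the upper crypt epithelium, had 177230 and 128630 in Bl, against 69192 and 47233 in Bt, with 101718 and 89330 in Bt/Bl and 53739 and 50192 in GF (log2 fold change 1.40, SE 0.24, adjusted p = 0.164). Casp4, the caspase that senses lipopolysaccharide in the cytosol, had 9628 and 8860 in Bl and 7712 and 4270 in Bt (0.69, SE 0.30), and Trim40, a ubiquitin ligase, 34240 and 22712 against 22735 and 13421 (0.67, SE 0.31). The 8 tested genes of this list had a median of 0.51, and none was called. Igha, the heavy chain of the IgA that mucosal plasma cells secrete, had log2 fold changes above 0 on its 3 probe sets, none of them called. The brightest had 25565 and 27712 in Bl and 12171 and 13110 in Bt (1.08, SE 0.22, adjusted p = 0.164). Jchain, which joins IgA into dimers, had 3497 and 3590 in Bl against 788.6 and 2226 in Bt (1.42, SE 0.43). Ighm, the heavy chain of IgM, averaged 1563 in Bl and 2825 in Bt on its brightest probe set (-0.88, SE 0.58), but 3 of its 4 other probe sets had the opposite sign (1.08, 0.34 and 0.38), and the level of Igha was higher still in GF, at 113964 and 95694. The B cell marker Cd79a did not pass the filter, and the number of plasma cells under the epithelium was not measured.

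Among 24 tested immediate early genes 8 were higher in Bl without overlap (33.3%, against 19.4% of all genes). In the lower direction there were 3 (12.5%, against 20%), and the median was 0.20. Egr3 had 3188 and 1268 in Bl against 581.9 and 303.4 in Bt, both under the floor (at least 3.45-fold higher, adjusted p = 0.183), Zfp36, which destabilizes cytokine transcripts, had 2864 and 2909 against 1058 and 1414 (1.24, SE 0.41), and Ddit4 3167 and 2793 against 2266 and 902.5 (1.06, SE 0.50). Of 29 tested glycosyltransferases none was called. B3galt5, which builds type 1 chains, had 304.4 and 362.8 in Bl, both under the floor, and 2165 and 2129 in Bt (at least 3.68-fold lower, adjusted p = 0.181). Its 2 other probe sets, dimmer in Bt, gave 0.56 (SE 0.28), the opposite direction, and -0.23 (SE 0.22). St6galnac2, a sialyltransferase of mucin glycans, had 113.5 and 1175 in Bl and 2411 and 3247 in Bt (-1.76, SE 0.56), and St3gal3, another sialyltransferase, 2622 and 2267 in Bl and 268.2 and 1073 in Bt (1.62, SE 0.73).

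Taking the genes called together with those past the 90% bound, ranked by that bound to at most 12 in each direction, 9 genes were higher in Bl and 12 were lower. Besides those described, the higher genes were Pitpnm2, a phosphatidylinositol transfer protein, Tgfb1, the growth factor, Meis1, a homeobox factor, Swi5, a recombination factor, Nmnat2, an enzyme of NAD synthesis, Slc15a2, a peptide transporter, Thumpd1, an RNA-modifying cofactor, and Fam171a2. Most of these were dim: 6 of the 8, all but Swi5 and Slc15a2, had both Bt GeneChips under the floor and mean signals of 1857 to 3276 in Bl. Tgfb1 had 2907 and 2365 in Bl, against 423.6 and 37.8 in Bt (at least 4.5-fold, adjusted p = 0.164), and a second probe set gave 0.80 (SE 0.39). Slc15a2 had 3422 and 1281 in Bl and 281.4 and 594.5 in Bt (1.83, SE 0.45), while its other probe set gave 0.29. The further lower genes were brighter. Tgm3, a transglutaminase of the surface epithelium, had 444.1 and 623.4 in Bl and 3741 and 3918 in Bt (-2.67, SE 0.45, adjusted p = 0.161). Clca4b, a relative of Clca1, had 1065 and 1225 in Bl and 5672 and 5164 in Bt (-2.24, SE 0.39), the opposite direction to Clca1. Gja1, the gap junction protein connexin 43, had 2677 and 2315 in Bl and 18362 and 5927 in Bt (-2.07, SE 0.44), and its 4 other probe sets were also below 0. Lgals1, a galectin of stromal cells, had 4100 and 1524 in Bl and 10808 and 8800 in Bt (-1.96, SE 0.41), and Asf1a, a histone chaperone, 557.1 and 988.7 in Bl and 2942 and 3586 in Bt (-2.10, SE 0.45). With 1 GeneChip left out in turn, 5 of the 21 genes moved by over 1.5-fold. Gja1 was at -1.25 without Bt 9130 and -2.88 without Bt 9443, and Swi5 at 0.997 and 3.25. Without Bl 9134 and without Bl 9135, Apoa4 was at -3.93 and -1.32, Lgals1 at -2.68 and -1.25, and Slc15a2 at 1.12 and 2.54.

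**Figure D5:**
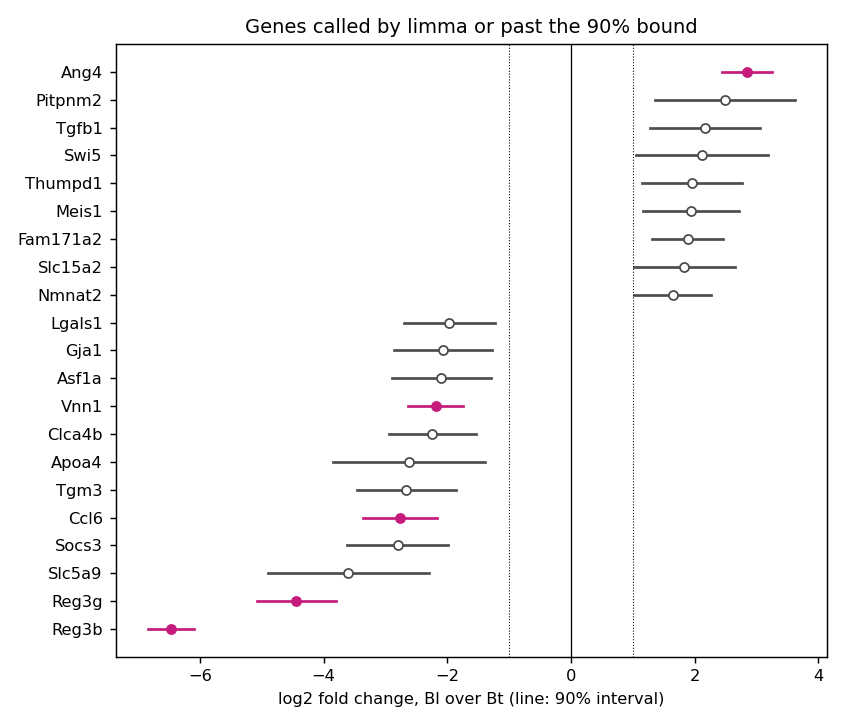
Log2 fold change of Bl over Bt with limma's 90% interval for 21 of the 32 genes past the 90% bound, at most 12 in each direction. Filled points are called at an adjusted p below 0.05, and dotted lines mark a 2-fold difference. All intervals lie beyond the dotted lines because the genes were chosen so. The points of Reg3b and Reg3g lie farthest from 0 on the left and that of Ang4 farthest on the right, although the interval of Pitpnm2 reaches farther right.

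For these 21 genes the position of Bt/Bl and GF was described without a test, since the genes were chosen on the same signals. Both Bl GeneChips lay above all 6 others for 8 genes (8.11% of all genes tested had that pattern) and below all 6 others for 5 (4%): Reg3b, Reg3g, Ccl6, Clca4b and Asf1a. Both Bt GeneChips lay above all 6 others for 9 (6.76%), among them Vnn1, Socs3, Tgm3, Apoa4 and Lgals1. Reg3b, Reg3g, Ccl6 and Clca4b had both properties, Bl lowest and Bt highest, a pattern shared by 35 of the 11654 genes (0.3%). By its mean log2 signal, Bt/Bl was nearer Bl for 9 of the 21 genes and nearer Bt for 12. Of the 9 genes higher in Bl it was nearer Bt for 7, Ang4 among them, and GF was nearer Bt for 8. Of the 12 genes lower in Bl, Bt/Bl was nearer Bl for 7 and nearer Bt for 5, and GF was nearer each for 6.

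The same states were also hybridized to the custom GlycoGeneChip, with 2 GeneChips a state, on which 371 of 708 mouse probe sets passed the same filter (floor 854.1). Its labels do not say whether these duplicates were amplifications of the same pools. None of its probe sets was called higher in Bl and 3 were called lower by limma (0.809%), and both probe sets of Reg3b were among them. The brighter had 3599 and 1195 in Bl, against 194932 and 199690 in Bt, with 110988 and 123018 in Bt/Bl and 44347 and 57740 in GF (log2 fold change -6.57, SE 0.32, adjusted p = 1.74e-13). The second had 139.3 and 115.2 in Bl, both under the floor, and 34227 and 27249 in Bt (at least 35.8-fold lower, adjusted p = 2.07e-10). The order of the 4 states was thus the same as on the Mouse 430 2.0. The third call was Gne, the enzyme that begins sialic acid synthesis, with 1577 and 1659 in Bl and 6701 and 5808 in Bt (-1.95, SE 0.43, adjusted p = 0.0193), but on the Mouse 430 2.0 it had a log2 fold change of 0.15. St6galnac2 was lower on both types, with 2283 and 2278 in Bl and 4260 and 4894 in Bt on the GlycoGeneChip (-1.002, SE 0.49). Of 9 genes named by rule and tested there, 5 had the opposite sign on the 2 types: Tnfsf10, Cxcl14, Reg2, Khk and Muc3 (0.66, 0.34, -0.50, 0.75 and -0.06 on the GlycoGeneChip). Of 220 genes tested on both, 122 had the same sign (55.5%), and of the 23 with an unadjusted p below 0.05 on the Mouse 430 2.0 it was 11.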

How the data were processed

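Affymetrix GeneChips of laser-captured cecal epithelium were read from the processed tables. The deposited intensity values are MAS5 signals on a linear scale, 1 for each probe set, and the 2% trimmed mean was the same on every Mouse 430 2.0 GeneChip. No detection calls came with them, and the paper's methods name dChip for its own analysis. Groups were taken from the sample labels.

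Signals under the median of all values of a table were raised to it, and log2 values were fitted with limma 3.58.1 (lmFit, and eBayes with an intensity trend) in R 4.3.3. All 8 GeneChips of a type shared the spread (4 residual degrees of freedom), and the contrast was Bl minus Bt, with Benjamini-Hochberg adjustment over every probe set that passed the filter (threshold 0.05). A p given without "adjusted" is limma's unadjusted p. "Called" means past that threshold, "at least" that the dim state was held at the floor, and fold changes with a floor understate dim genes. Symbols came from the platform annotation: 34958 probe sets had 1, 932 had several and 9211 had none, and only the first kind was named. Of the 80 genes chosen by rule, the first were those called without overlap of GeneChips, filled to at most 12 per direction by the 90% bound, then up to 4 called and the 3 largest members of each list described, and genes that the paper names. The members and lists were chosen with earlier results of these data known. The fit was tested on simulated data. Other floors, filters, scalings and variance models were tried, and each GeneChip was left out in turn. The 2 GeneChips of a state limit the precision of every value. Promoters came from RefSeq (GRCm38.p6).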

Additional observations from a re-analysis of the deposited data

How the results depend on the processing

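Reg3b (log2 fold change -6.61 to -6.35) and Ang4 (2.71 to 2.93) were called under all 12 alternatives that kept every GeneChip of Bl and Bt, Reg3g under 11, Ccl6 under 10 and Vnn1 under 7. Other genes were called under some: Socs3 under 3, Slc5a9 under 2, and Tgm3 and Clca4b under 1 each. With only the 4 Bl and Bt GeneChips the adjusted p was 0.0661 for Reg3g, 0.143 for Ccl6 and 0.225 for Vnn1. Called probe sets numbered 2 higher with the floor at the 25th percentile, with no floor and with robust eBayes, 16 higher and 13 lower with no filter, 2 and 11 with the filter at the 75th percentile, 3 lower without an intensity trend and 2 lower with only the 4 GeneChips. Past the 90% bound were 622 higher and 365 lower with the floor at the 25th percentile, 498 and 293 with no floor, 10 higher with either scaling (a common median or 75th percentile), 47 higher without the trend, 6 and 16 with the 4 GeneChips, and 12 higher without GF. The median of all probe sets moved to -0.13 when GeneChips were scaled to a common median, against 0.01. With 1 GeneChip left out, called probe sets ranged from 1 to 920 higher and from 4 to 419 lower, and those past the bound from 13 to 445 and from 25 to 230; the lone GeneChip of a state was then assumed to vary like the other states, and the cause was not tested. In these fits the log2 fold change changed sign for Fabp1 (-0.82 to 0.16), Irgm2 (-0.21 to 0.71, and -0.01 without Bt 9130), Muc4 (-0.031 to 0.61), Reg2 (-0.30 to 0.86, and -0.18 without Bt 9443), Ido1 (-0.21 to 2.09) and Pglyrp1 (-1.83 to 0.48). No paired analysis was possible because the GeneChip numbers of different states are not shared. Signals near the floor and the 2 GeneChips of 1 pool a state limit what can be called.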

Other observations

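Several other gene groups showed no call in either direction. Of 24 tested genes of cholesterol and fatty acid synthesis, 4 were higher in Bl without overlap and 3 were lower (median log2 fold change -0.02), and of 35 genes of the cell cycle and DNA replication 3 were higher and 7 were lower (-0.12). The 22 tested genes of water, chloride and bicarbonate transport had 6 higher and 1 lower (0.22), and the 18 markers of enterocytes and colonocytes also had 6 higher and 1 lower (0.22). The 16 tested hormones and granins of enteroendocrine cells had 2 higher and 6 lower (-0.20), the 7 tested tuft cell markers 3 in each direction (-0.40), and the 16 tested ribosomal proteins 0 higher and 4 lower (-0.23). Among all genes 19.4% were higher and 20% were lower without overlap.

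Probe sets that name no gene here, or several, were also past the 90% bound. One without a gene averaged 34630 in Bl and 253166 in Bt, but its SD in Bt was 271561 (n = 2), and its log2 fold change of -2.26 had an adjusted p of 0.184 from limma. The unnamed probe set called lower in Bl, with a mean of 2109 in Bl and 11594 in Bt, had 16950 and 18230 in Bt/Bl and 4006 and 4834 in GF, so that Bl was below all 6 other GeneChips.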
